A study of Homo sapiens with 6 samples.

Results

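The 34 genes described here are the enzymes of glycolysis, the carriers of glucose and lactate, the kinases that set how pyruvate and fructose phosphates are used, a group of hypoxia-response genes, and the alpha subunits of the hypoxia-inducible factors. They were chosen by name as members of these pathways, and all 34 were found by symbol among the 60651 gene identifiers of the count tables. The cells were SK-N-AS, a human neuroblastoma line in long use that has no amplification of the MYCN oncogene. All 6 cultures carried a tetracycline-inducible MYCN gene together with the tetracycline repressor, were grown from single clones, and were kept under 500 µg/ml G418 and 5 µg/ml blasticidin. The 3 control cultures are labelled ETOH, and the 3 MYCN-induced cultures, labelled Tet, received tetracycline for 120 h (5 days). The effects of MYCN and of tetracycline itself cannot be told apart in this design, and results from selected clones of 1 cell line may not hold for others.

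Glycolysis splits glucose into pyruvate in the cytosol, and lactate dehydrogenase can turn pyruvate into lactate, which leaves the cell through monocarboxylate carriers. When oxygen is low, the alpha subunits HIF1A and EPAS1 escape degradation and, with ARNT, switch on many of these genes. MYC family proteins bind the E-box CACGTG in DNA and are known to act on several glycolytic genes, so the comparison asks how the mRNA of this pathway differs when MYCN is raised.

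The E-box and the core letters of the hypoxia response element were searched in promoters from RefSeq (GRCh38.p14, 250 bases before to 50 bases after each start site), on both strands. The table held 30 of the 34 genes and lacked SLC2A3, SLC16A1, VEGFA and NDRG1. CACGTG was found in 7 of these 30 genes (23.3%), namely HK2, ALDOA, ALDOC, GAPDH, LDHA, PFKFB3 and BNIP3, against 10.9% of 15328 protein-coding genes. Many genes have several promoters in the table, and per promoter the shares were 12.3% of 57 and 8.35% of 21573. ACGTG, which every CACGTG also contains, was found in 60.0% of the 30 genes and in 28.7% of all, and GCGTG in 66.7% and 50.8%. Per promoter the shares were 38.6% and 23.1% for ACGTG, and 42.1% and 43.1% for GCGTG, which was thus no more frequent per promoter in these genes. For HK2 and PFKFB3 the E-boxes lie before the later of the 2 start sites held for each gene. The windows of 30 bases below show the E-boxes upstream of the start sites, and GCGTG for ENO1, the enolase gene whose mRNA passed the test described further on. They are read 5′ to 3′ on the strand of the gene, capitals mark the motif (CACGC is GCGTG on the other strand), and a match is a description of the letters only.
HK2 at chr2:74834964-74834993, plus strand: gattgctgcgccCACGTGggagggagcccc
HK2 at chr2:74835009-74835038, plus strand: ttccggcgagagCACGTGgagagaatcgtg
ALDOA at chr16:30064373-30064402, plus strand: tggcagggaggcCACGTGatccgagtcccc
GAPDH at chr12:6535171-6535200, plus strand: gctctgcggggtCACGTGtcgcagaggagc
LDHA at chr11:18394366-18394395, plus strand: agactcccagcgCACGTGgagcagtctgcc
LDHA at chr11:18394464-18394493, plus strand: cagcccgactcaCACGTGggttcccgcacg
PFKFB3 at chr10:6202812-6202841, plus strand: caccctcctcccCACGTGgaagggggctgg
BNIP3 at chr10:131982040-131982069, minus strand: gcgcacgcgccgCACGTGccacacgcaccc
ENO1 at chr1:8878835-8878864, minus strand: cacccccctttcCACGCtactgcagccgtc
ENO1 at chr1:8878741-8878770, minus strand: ggagctgaggggGCGTGccccggaggcggg

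Levels are given as CPM, counts per gene scaled to a common library total and adjusted by TMM between libraries. Total counts ran from 64500589 to 102249336 pairs per library. MYCN stood at 30.3, 35.5 and 32.4 CPM in the control libraries and at 211, 221 and 199 CPM in the induced libraries, in the order of their replicate numbers. The neuroblastoma transcription factors HAND2 and GATA3 were expressed in every library (99.9 to 559 CPM), whereas CD44 of the mesenchymal marker list was listed at 0 throughout, and the summed level of each list of immune, endothelial and epithelial markers was at most 2.38 CPM. The 7 mesenchymal neuroblastoma markers summed to 481 to 503 CPM in control and 549 to 602 CPM in induced libraries, and of 6 tested, edgeR called only FN1, as lower (adjusted p = 0.033), while 5 had log2 fold changes above 0. Over all genes, edgeR called 2.38% lower. DESeq2 called 2 of these 6 higher and 1 lower (3.11% and 4.12% of all genes). Without induced replicate 3, edgeR called 4 higher and 1 lower (3.68% and 4.44% of all genes). Without any 1 other library it called none in either direction, where 18 to 169 of all genes were higher and 72 to 297 lower. Of the 7 adrenergic markers 3 had log2 fold changes above 0 and 4 below, and edgeR called none. ISL1 (log2 fold change -0.55, edgeR adjusted p = 0.0562) and DBH (-0.85, edgeR adjusted p = 0.147) were among the 4. Both were called lower by DESeq2 (adjusted p = 0.00568 and 0.04) and by edgeR without induced replicate 3 (0.0177 and 0.0156). Neither of these fits called any other of the 7. MYCN-induced replicate 3 stood apart, at 72.5 on the first principal component (44.5% of the variance), where induced replicates 1 and 2 lay at 14.9 and 13.1 and the controls between -41.5 and -27.2. A list of 12 stress response genes around ATF4, a transcription factor of amino acid and mitochondrial stress, summed to 1542 CPM in that library, to 615 and 466 CPM in induced replicates 1 and 2, and to 283 to 298 CPM in the controls. Of these genes 11 were tested and 3 rose by edgeR's adjusted p, where 1.02% of all genes did. DESeq2 and edgeR without induced replicate 3 each called 8 as higher, where 3.11% and 3.68% of all genes were. The edgeR fit with RLE scaling called 1, where 337 of all genes were called higher. Without any 1 control or without induced replicate 1 edgeR called 0, where 18 to 73 of all genes were. The part of these stress genes in the results below was not tested. Values without induced replicate 3 are given where they differ most.

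Few of the pathway's genes passed the test, and most of those that did were higher in MYCN-induced cells. Of the 34 genes 33 had enough counts to be tested (at least 10 in at least 3 libraries). Hexokinase 2 (HK2), enolase 1 (ENO1) and the lactate carrier SLC16A1 rose, and pyruvate dehydrogenase kinase 1 (PDK1) fell, by edgeR's quasi-likelihood test with Benjamini-Hochberg adjustment over 29086 genes and a threshold of 0.05. In RNA of whole cultures, a change in every cell and a change in a share of the cells cannot be told apart. Of all genes tested, 1.02% passed as higher and 2.38% as lower. The share of 1 in 33 that fell is near that background. The groups did not overlap, with induced higher, for 11 of the 33 genes (11.5% of all genes tested) and with induced lower for 6 (14.7% of all). The median log2 fold change of the 33 was 0.12, against -0.00038 over all genes tested, and 19 of them were above 0 (49.9% of all genes). These counts depended on single libraries, as did those over all genes. Without any 1 of the controls or without induced replicate 1 or 2, edgeR called none of the 34 genes higher. In those fits 18 to 169 of all genes passed as higher, of 28433 to 28929 tested. Of the 34 genes 6 to 10 were higher there at an unadjusted p under 0.05, and the share over all genes was not taken. Without induced replicate 3, 5 passed as higher and 3 as lower, where 3.68% and 4.44% of all genes passed.

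**Figure D1:**
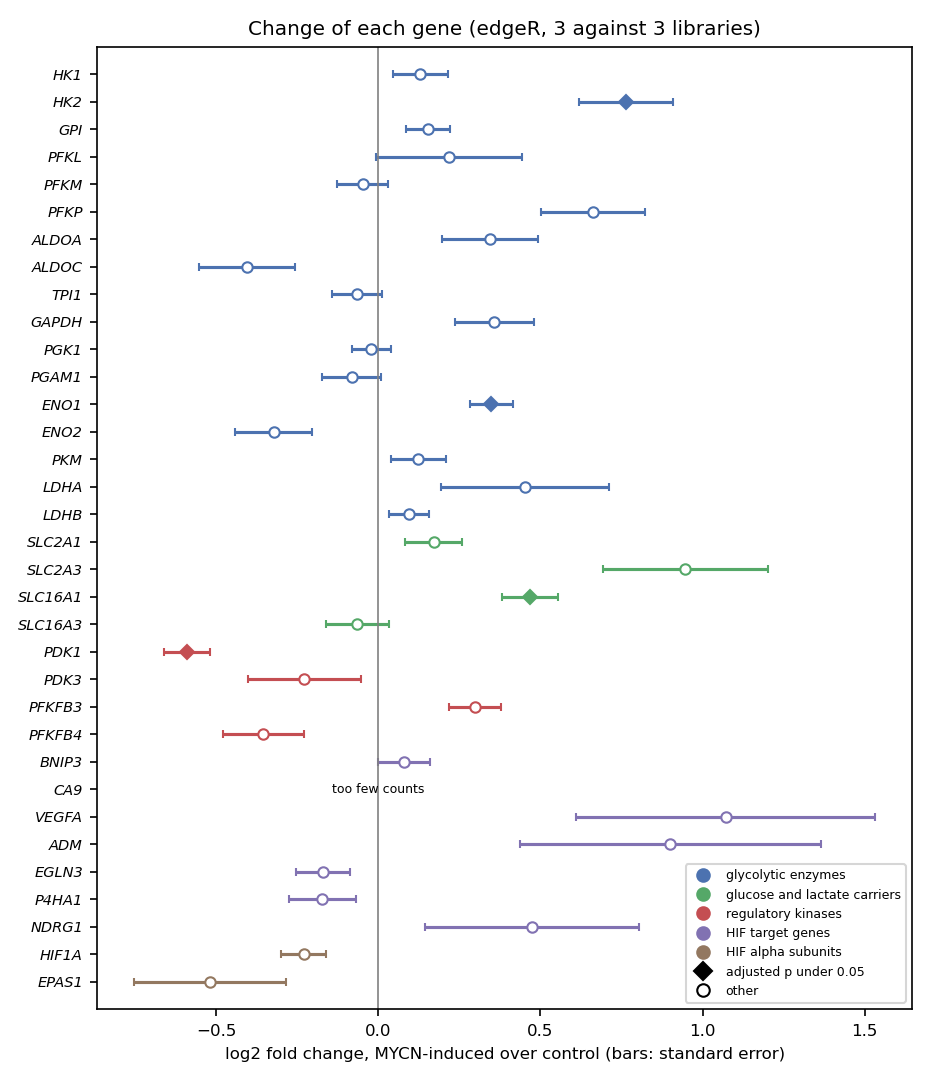
The log2 fold change of each gene (MYCN-induced over control, horizontal axis) with its standard error as bars, from edgeR on 3 against 3 libraries, coloured by role. Filled diamonds mark the 4 genes past the threshold, HK2, ENO1 and SLC16A1 to the right of 0 and PDK1 to the left, and the widest bars belong to VEGFA and ADM.

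Among the enzymes past the threshold, the larger log2 fold change was at the first step, hexokinase. HK2 (ENSG00000159399.10, chromosome 2 from 74834127 to 74893359 of GRCh38, plus strand) phosphorylates glucose and binds mitochondria. Both E-boxes shown first lie inside this span, upstream of the later of its 2 start sites. HK2 stood at 109.8, 114 and 112 CPM in the control libraries and at 163, 168 and 240.0 CPM in the induced libraries. All induced libraries lay above all controls, and induced replicate 3 was the highest. HK2 rose by 0.76 on the log2 scale (standard error 0.14, edgeR adjusted p = 0.035). Without induced replicate 3 the log2 fold change was 0.57 (adjusted p = 0.00279), while leaving out any other library gave adjusted p-values of 0.0523 to 0.165. HK1, the hexokinase of most tissues, averaged 140 ± 4.96 CPM in the controls and 153 ± 15.8 CPM after induction (SD, n = 3 each), with overlapping groups (log2 fold change 0.13, edgeR adjusted p = 0.475, and 0.05 on the log2 scale without induced replicate 3). Per length, HK2 was the lower of the pair in every control library and the higher in every induced library. Its log2 ratio to HK1 in TPM, the level scaled by exon length, was -0.23 ± 0.04 in control and 0.38 ± 0.17 in induced cells (SD, n = 3 each). No test was made of such ratios, since an exact permutation test of 3 against 3 libraries cannot give a two-sided p below 0.1.

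GPI, which turns glucose phosphate into fructose phosphate, had induced libraries above the controls by a small margin (145 ± 4.41 against 162 ± 9.56 CPM, SD, n = 3 each, edgeR adjusted p = 0.277). Phosphofructokinase, the main control point of the pathway, is made of subunits from PFKL, PFKM and PFKP. The platelet-type gene PFKP stood at 43.6, 61.6 and 68.0 CPM in control and at 81.9, 100.2 and 91.7 CPM in induced libraries. Its groups did not overlap, and control replicate 1 was the lowest library. Its log2 fold change of 0.66 (standard error 0.16) missed the threshold (edgeR adjusted p = 0.0713), and it passed with DESeq2 (adjusted p = 0.00731), with upper quartile scaling (edgeR adjusted p = 0.0425) and without the filter on low counts (edgeR adjusted p = 0.0251). PFKL, the liver-type gene, was also lowest in control replicate 1, at 24.0 CPM against 38.1 and 45.0 in the other controls and 33.9 to 48.5 in the induced libraries. The groups overlapped (log2 fold change 0.22, edgeR adjusted p = 0.665), and the value was -0.0061 without that library. The longest annotated transcript of PFKL is 64.1% G and C. In control replicate 1, protein-coding genes in the upper quartile of GC content lay at a median of -0.19 log2 from the mean of the controls. The other libraries lay at -0.05 to 0.13, each measured from the mean of its own group. The part of GC content in the low PFKL value of that library was not tested. With a correction for GC content, chosen after seeing the data, the log2 fold change of PFKL was 0.20 (edgeR adjusted p = 0.349) and that of PFKP 0.71 (edgeR adjusted p = 0.0436). The muscle-type gene PFKM was at 84.3 ± 7.38 and 81.5 ± 2.42 CPM (SD, n = 3 each, edgeR adjusted p = 0.803).

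**Figure D2:**
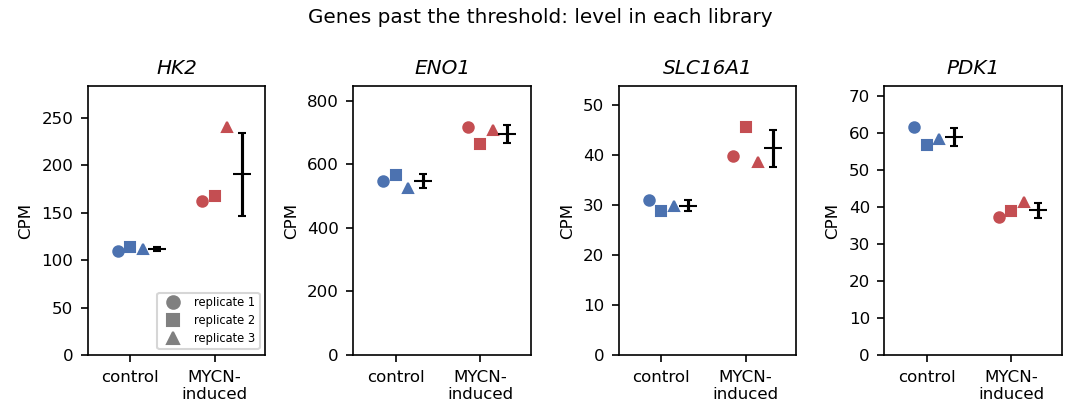
Level in CPM (vertical axis, from 0) of the 4 genes past the threshold in each control (blue) and MYCN-induced (red) library, with the mean and SD in black (n = 3). HK2, ENO1 and SLC16A1 lie higher in every induced library and PDK1 lower, and the HK2 point of induced replicate 3 stands above the other induced points at 240.0 CPM.

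ENO1, which makes phosphoenolpyruvate, was the other enzyme that rose. This gene (ENSG00000074800.16, chromosome 1 from 8861000 to 8879190, minus strand) stood at 547, 568 and 525 CPM in control and at 717, 663 and 707 CPM in induced libraries. The groups lay well apart, with no library out of place. On the log2 scale ENO1 rose by 0.35 (standard error 0.07, edgeR adjusted p = 0.036). The call was lost with library size scaling (adjusted p = 0.0789) and upper quartile scaling (0.0867), and without any 1 library other than induced replicate 3 (0.0523 to 0.17). ENO2, the neuronal enolase, averaged 5.99 ± 0.31 CPM in the controls and 4.79 ± 0.512 CPM after induction (SD, n = 3 each). Its groups did not overlap, with the induced libraries lower, but the difference did not pass (log2 fold change -0.32, edgeR adjusted p = 0.197).

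The aldolases were placed in opposite directions too, and neither passed the test. ALDOA, the form of most tissues, was at 113, 161 and 167 CPM in control and at 169, 187 and 203 CPM in induced libraries (log2 fold change 0.34, edgeR adjusted p = 0.262). The groups did not overlap, and control replicate 1 was again the lowest. ALDOC, the brain form, averaged 4.24 ± 0.412 CPM in the controls and 3.20 ± 0.486 CPM after induction (SD over 3 libraries each), with a log2 fold change of -0.41 (edgeR adjusted p = 0.194). ALDOA shares 54.4% of its exon bases with other annotated genes, and pairs there were split between the genes.

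GAPDH, which makes the first NADH of the pathway and is often used as a reference gene, stood at 1099, 1129 and 1087 CPM in control and at 1383, 1182 and 1684 CPM in induced libraries. Every induced library was above every control, and the induced libraries were widely spread. The difference did not pass the test (log2 fold change 0.36, standard error 0.12, edgeR adjusted p = 0.165), and without induced replicate 3 the log2 fold change was 0.22. An annotated gene on the opposite strand shares 17.6% of the exon bases of GAPDH and held 36940 to 59030 counts per library. The level of GAPDH is therefore uncertain. For LDHA, which reduces pyruvate to lactate, control replicate 2 stood alone at 129 CPM, against 270.3 and 270.5 in the other controls and 283, 351 and 283 CPM in the induced libraries. The log2 fold change of 0.45 (standard error 0.26, edgeR adjusted p = 0.408) became 0.17 without that library. LDHB, the heart form of the enzyme, was at 224 ± 5.1 and 239 ± 9.99 CPM (SD, n = 3 each, edgeR adjusted p = 0.466), and 33.4% of its exon bases are shared with another annotated gene.

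The remaining enzymes had overlapping groups. TPI1, which interconverts the triose phosphates, PGK1, which makes ATP, and PGAM1, which moves the phosphate group, had log2 fold changes of -0.07, -0.02 and -0.08, and PKM, the pyruvate kinase of growing cells, had 0.12. Their edgeR adjusted p-values ran from 0.502 for PKM to 0.893 for PGK1. The values of TPI1, PGK1 and PGAM1 changed sign without induced replicate 3.

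Summed over the genes of a step in TPM, the hexokinase step was 1.36 times as high in induced as in control cells, phosphofructokinase 1.20 times, aldolase 1.25 times, GAPDH 1.26 times and enolase 1.27 times, each with no overlap between the groups. In TPM the other 6 steps overlapped, among them glucose phosphate isomerase and lactate dehydrogenase. In CPM, however, all induced libraries lay above all controls for each of GPI, LDHA and LDHB. All 17 enzymes together were at 1797 ± 91.8 TPM in control and 2133 ± 95.0 TPM in induced cells (SD, n = 3 each), a ratio of 1.19 with no overlap. These sums are led by GAPDH, the most abundant of the genes per length at 757 TPM in control cells. The level of GAPDH is uncertain because of the overlap given above. PKM, ENO1 and TPI1 followed at 191, 172 and 166 TPM, and these neighbours did not differ beyond their spread. TPM is scaled to the total of each library without TMM, so its values are compared here as a description.

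**Figure D3:**
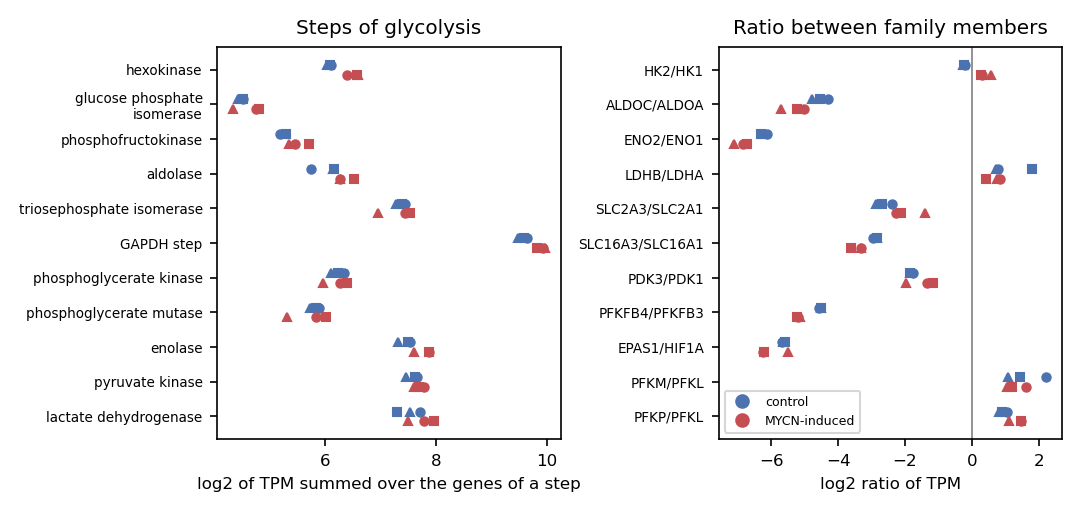
Left, log2 of the TPM summed over the genes of each glycolytic step, and right, the log2 ratio of TPM between 2 members of a family, with 1 point per control (blue) and MYCN-induced (red) library and shapes for replicates 1 (circle), 2 (square) and 3 (triangle). The ratio of HK2 to HK1 lies below 0 in the controls and above 0 in the induced libraries, and control replicate 2 stands apart in the ratio of LDHB to LDHA.

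Among the carriers, the lactate and pyruvate carrier SLC16A1 (MCT1) rose. SLC16A1 (ENSG00000155380.13, chromosome 1 from 112911847 to 112957593, minus strand) stood at 31.1, 28.8 and 29.9 CPM in control and at 39.9, 45.6 and 38.7 CPM in induced libraries. The groups did not overlap. Its log2 fold change was 0.47 (standard error 0.09, edgeR adjusted p = 0.0319). With library size scaling the adjusted p was 0.0745 and with upper quartile scaling 0.0508, and without any 1 library other than induced replicate 3 it was 0.0634 to 0.195. SLC16A3 (MCT4), the carrier known for lactate export from glycolytic cells and a target of the hypoxia response, was at 5.87 ± 0.147 and 5.61 ± 0.208 CPM (SD, n = 3 each), with overlapping groups (edgeR adjusted p = 0.781). Its log2 ratio to SLC16A1 in TPM was -2.89 ± 0.07 in control and -3.42 ± 0.17 in induced cells (SD, n = 3 each), without overlap.

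SLC2A1 (GLUT1), the basal glucose carrier, was at 32.1 ± 2.29 and 36.1 ± 2.64 CPM (SD over 3 libraries each), with a log2 fold change of 0.17 (edgeR adjusted p = 0.356). SLC2A3 (GLUT3), a carrier of high glucose affinity known from neurons, stood at 5.16, 4.71 and 4.20 CPM in control and at 6.93, 6.997 and 13.2 CPM in induced libraries. All induced libraries were above the controls, with induced replicate 3 far above the other induced ones. The log2 fold change of 0.95 (standard error 0.25) did not pass (edgeR adjusted p = 0.095). It passed with DESeq2 (adjusted p = 0.00542), without the filter on low counts (edgeR adjusted p = 0.0383), and, at a smaller log2 fold change of 0.58, without induced replicate 3 (edgeR adjusted p = 0.0238). The level of SLC2A3 is uncertain, because its 3 named pseudogenes held 70.8% to 88.5% of the counts summed over the gene and these copies.

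The regulatory kinases held the strongest call of the pathway. PDK1 (ENSG00000152256.14, chromosome 2 from 172555373 to 172608669, plus strand) shuts pyruvate dehydrogenase by phosphorylation and so keeps pyruvate from being turned into acetyl-CoA, and it is a known target of HIF1A. It stood at 61.7, 56.7 and 58.4 CPM in control and at 37.4, 38.8 and 41.3 CPM in induced libraries. Every induced library lay below every control with little spread in either group. PDK1 fell by 0.59 on the log2 scale (standard error 0.07, edgeR adjusted p = 0.00774), and this call was lost without control replicate 2 (adjusted p = 0.0592) or control replicate 3 (0.0521). An antisense gene, PDK1-AS1, covers 2.998% of its exon bases. PDK3, another kinase of the same complex, was at 15.2 ± 1.12 and 13.0 ± 3.15 CPM (SD, n = 3 each), with induced replicate 3 the lowest library and overlapping groups. Its log2 fold change was -0.23 (edgeR adjusted p = 0.545), and -0.04 without that library.

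PFKFB3 and PFKFB4 make fructose 2,6-bisphosphate, the activator of phosphofructokinase. PFKFB3 stood at 47.4, 52.5 and 51.8 CPM in control and at 62.2, 66.8 and 57.4 CPM in induced libraries. Its groups did not overlap, its log2 fold change was 0.30 (standard error 0.08, edgeR adjusted p = 0.098), and without induced replicate 3 it was 0.36 and passed (adjusted p = 0.0296). PFKFB4 averaged 2.18 ± 0.157 CPM in the controls and 1.70 ± 0.0771 CPM after induction (SD, n = 3 each), without overlap in the other direction (log2 fold change -0.35, edgeR adjusted p = 0.18). The log2 ratio of PFKFB4 to PFKFB3 in TPM had the smallest SD of the 11 ratios in both groups, at -4.54 ± 0.03 in control and -5.19 ± 0.04 in induced cells (SD, n = 3 each).

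None of the 6 hypoxia-response genes tested passed as higher or lower in edgeR (1.02% and 2.38% of all genes) or in DESeq2 (3.11% and 4.12%). At an unadjusted p under 0.05 in edgeR 1 was higher, where 8.13% of all genes were. That gene was VEGFA, the growth factor of blood vessels, at 53.5, 51.2 and 52.0 CPM in control and at 73.1, 49.0 and 207 CPM in induced libraries. Induced replicate 3 alone was far above all others, and induced replicate 2 was below the controls. The log2 fold change was 1.07 (standard error 0.46, edgeR adjusted p = 0.264) and 0.23 without induced replicate 3. NDRG1, a stress and hypoxia gene, was likewise highest in induced replicate 3, at 3.66, 3.77 and 3.48 CPM in control and at 3.37, 3.49 and 8.26 CPM in induced libraries. Its log2 fold change was 0.47 (edgeR adjusted p = 0.503), and -0.07 without induced replicate 3.

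BNIP3, which acts in the removal of mitochondria, was at 31.7 ± 1.69 and 33.5 ± 2.12 CPM (SD, n = 3 each, edgeR adjusted p = 0.664), and its named pseudogenes held 23.1% to 31.1% of the summed counts. EGLN3, an oxygen-dependent hydroxylase that marks HIF alpha subunits for degradation, was at 58.2 ± 0.868 and 51.7 ± 5.00 CPM (SD, n = 3 each), with all induced libraries below the controls (log2 fold change -0.17, edgeR adjusted p = 0.319). P4HA1, a collagen prolyl hydroxylase, had a log2 fold change of -0.17 with overlapping groups (edgeR adjusted p = 0.434), and -0.07 without induced replicate 3. The vasodilator peptide gene ADM held 7 to 25 counts per library (log2 fold change 0.90, standard error 0.46, edgeR adjusted p = 0.353). CA9, the carbonic anhydrase widely used as a marker of hypoxic cells, held 0 to 6 counts per library and was not tested. The antisense-strand gene ARHGEF39 shares 36.1% of the exon bases of CA9.

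**Figure D4:**
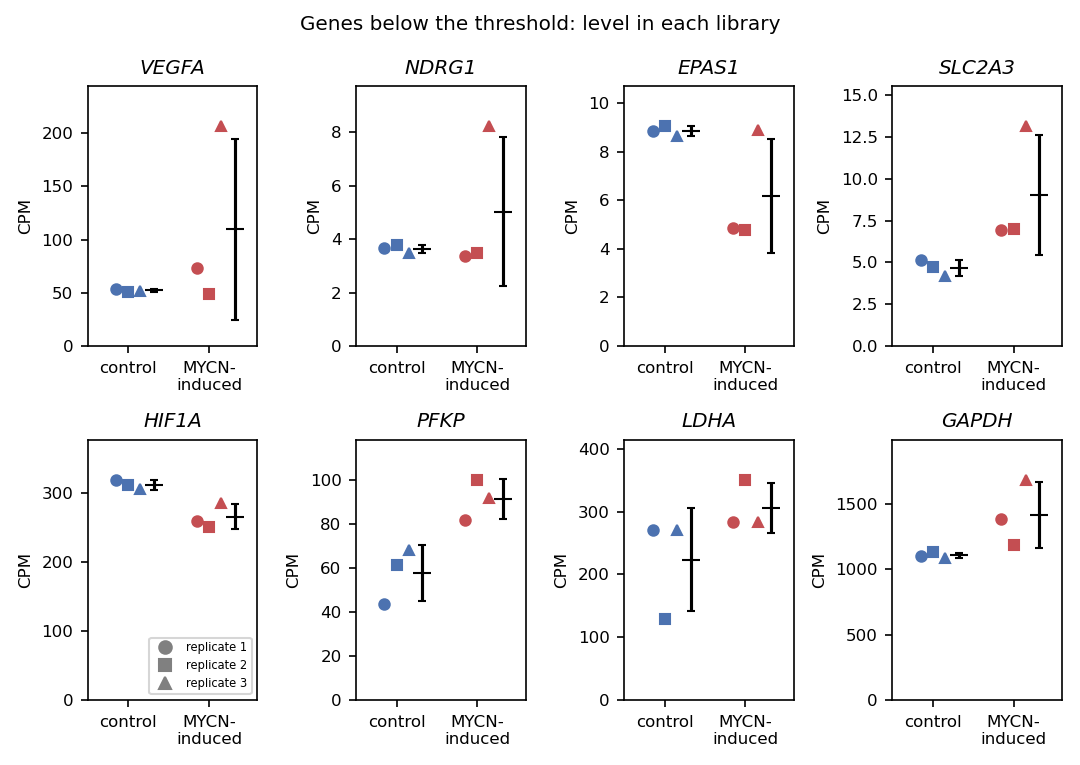
Level in CPM (vertical axis, from 0) of 8 genes that did not pass the threshold, in each control (blue) and MYCN-induced (red) library, with the mean and SD in black (n = 3). Induced replicate 3 (red triangle) stands above the other induced libraries for VEGFA, NDRG1, EPAS1 and SLC2A3, and control replicate 2 (blue square) stands at 129 CPM for LDHA.

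Both HIF alpha subunits were on average lower in induced cells and neither passed. HIF1A, the subunit behind most glycolytic targets, stood at 320, 311 and 306 CPM in control and at 260.3, 252 and 286 CPM in induced libraries. The groups did not overlap, and induced replicate 3 was nearest to the controls. Its log2 fold change was -0.23 (standard error 0.07, edgeR adjusted p = 0.128), and without induced replicate 3 it was -0.28 and passed (adjusted p = 0.0179). EPAS1 (HIF-2 alpha), a subunit known from sympathoadrenal cells, stood at 8.83, 9.07 and 8.66 CPM in control and at 4.85, 4.77 and 8.89 CPM in induced libraries. Induced replicates 1 and 2 lay far below the controls and induced replicate 3 among them. The log2 fold change was -0.52 (standard error 0.23, edgeR adjusted p = 0.285), and without induced replicate 3 it was -0.87 and passed (adjusted p = 0.00374). Subunits of this factor are controlled mainly through protein stability, which RNA counts do not measure.

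Induced replicate 3 differed by more than 0.5 on the log2 scale from the mean of the other induced libraries for 6 of the 34 genes. It was higher for VEGFA (1.79), NDRG1 (1.24), SLC2A3 (0.91), EPAS1 (0.87) and HK2 (0.54), and lower for PDK3 (-0.60). The spread among induced libraries was larger than among controls for 26 of the 33 genes tested. The same share over all genes was not taken, so this count is not read as a trait of these genes.

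The rest of the pathway was read from 98 further genes in 5 lists, of which 88 were tested. In edgeR 4 passed as higher and none as lower, where 1.02% and 2.38% of all genes did, while 18 and 7 had an unadjusted p under 0.05 (8.13% and 10.6% of all genes). DESeq2 passed 10 as higher and 3 as lower (3.11% and 4.12% of all genes). Of 36 other hypoxia-response genes 3 rose. AK4, a mitochondrial adenylate kinase, stood at 4.17, 3.86 and 3.50 CPM in control and at 7.50, 8.04 and 6.40 CPM in induced libraries, a log2 fold change of 0.93 (standard error 0.13, edgeR adjusted p = 0.0126). MXI1, a partner of MAX that opposes MYC at E-boxes, stood at 38.2, 36.2 and 37.9 CPM in control and at 51.3, 57.6 and 64.1 CPM in induced libraries, a log2 fold change of 0.62 (standard error 0.09, edgeR adjusted p = 0.0154). Neither gene's groups overlapped. AK4 lost its call without control replicate 2 or 3 or induced replicate 1 (adjusted p = 0.0557 to 0.0962), and MXI1 without any 1 control (0.0654 to 0.112). The third was STC1, a secreted glycoprotein named after its values were seen, at under 1 CPM in every library (log2 fold change 1.51, edgeR adjusted p = 0.0475, and 0.0279 to 0.199 when 1 library was left out).

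Of 22 other glycolysis genes tested, 1 passed as higher, the insulin-regulated glucose carrier SLC2A4. It held 4 to 6 counts in the control libraries and 11 to 29 in the induced libraries. It therefore met the filter of 10 counts in 3 libraries only through the induced ones, which favours a call as higher. Its edgeR adjusted p was 0.0389, and 0.128 to 0.177 in the fits without 1 library that still tested it. SLC2A4 too was named after its values were seen. The last 3 lists held 10 genes that bring pyruvate into the mitochondrial pyruvate dehydrogenase complex, 7 of the pentose phosphate pathway and 13 HIF regulators. In them edgeR called none in either direction (1.02% and 2.38% of all genes as higher and lower). At an unadjusted p under 0.05, 2 genes of each list passed, as higher except for the HIF regulators, where both were lower. Over all genes 8.13% were higher and 10.6% lower. DESeq2 called 3 genes of these lists (3.11% of all genes as higher and 4.12% as lower), all named after their values were seen. PDHA1 and PDHX, subunits of the complex that PDK1 acts on, passed as higher (DESeq2 adjusted p = 0.0329 and 0.031), and ARNT2, a partner of HIF alpha subunits, passed as lower (DESeq2 adjusted p = 0.00542). All 7 pentose phosphate genes had log2 fold changes above 0, from 0.10 to 0.47, where 49.9% of all genes tested were above 0. For 2 of the 7 the groups did not overlap, with induced higher (11.5% of all genes tested). Without induced replicate 3 the log2 fold changes of these 7 genes ran from -0.07 to 0.29.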

How the data were processed

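Ribosome-depleted total RNA of 3 control and 3 MYCN-induced SK-N-AS cultures was sequenced in pairs of 150 bases. The authors deposited estimated counts per gene, made with STAR 2.7.1a on GRCh38 and featureCounts, which shared a pair over several genes in equal fractions. The submitters' processing notes name featureCounts 1.5.1, whereas the file headers name 1.6.4 without a strand option. The methods list a strand option, so counts where genes overlap on opposite strands are uncertain. Of the 60651 identifiers 99.6% matched GENCODE release 44, which was used for names.

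Groups and replicate numbers came from the sample titles, and the paper describes independent experiments. Counts were rounded. Genes reaching 10 counts in 3 or more libraries entered edgeR 4.0.16 (R 4.3.3, TMM, quasi-likelihood test, Benjamini-Hochberg adjustment, threshold 0.05). Libraries of a group differed by more than sampling noise, and depth left the spread between cultures as the main error. The study used DESeq2, run here as an alternative (version 1.42.0). The other alternatives were library size, upper quartile and RLE scaling, no count filter, a replicate block, leaving out each library, and TPM. A GC correction (lowess, span 0.3) was added later. The scripts were tested on simulated data. The members, gene lists and markers were chosen with earlier results of these data known. Named were all 34 members, MYCN, genes of the other lists that passed the test and averaged 1 CPM or more (at most 5 per direction and list), and genes overlapping or copying a member.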

Additional observations from a re-analysis of the deposited data

How the results depend on the processing

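Of 465 log2 fold changes of the genes named by rule, each gene under up to 13 alternatives, 419 kept their direction and their side of the threshold, 29 lost and 11 gained the call, and 6 reversed. The reversed values all belong to genes that did not pass and to fits without 1 library: PFKL -0.0061 and PFKM 0.011 without control replicate 1, and TPI1 0.014, PGK1 0.0084, PGAM1 0.019 and NDRG1 -0.074 without induced replicate 3. Over all fits without 1 library the log2 fold changes ran from -0.0061 to 0.42 for PFKL, -0.11 to 0.011 for PFKM, -0.10 to 0.014 for TPI1, -0.051 to 0.0084 for PGK1, -0.15 to 0.019 for PGAM1 and -0.074 to 0.70 for NDRG1. The 35 differences in TPM moved by less than the spread between replicates. The number of the 34 genes called higher was 3, with 1 under library size scaling, 2 under upper quartile scaling, 5 without the count filter, 5 with DESeq2, 4 with the GC correction and 0 to 5 when 1 library was left out. The number called lower was 1, with 0 to 3 when 1 library was left out. Of the 98 other pathway genes 4 were higher (7 without the count filter, 6 with upper quartile scaling, 6 with the GC correction, 10 with DESeq2, 0 to 8 without 1 library) and 0 lower (1 with the GC correction, 3 with DESeq2, 0 to 1 without 1 library). Over all genes 298 were higher (470 without the filter, 904 with DESeq2, 582 with the GC correction, 18 to 1060 without 1 library) and 692 lower (1199 with DESeq2, 890 with the GC correction, 72 to 1279 without 1 library). Fits without 1 library have fewer samples, and the cause of the other shifts was not tested. The share of higher calls was 30.1%, with 26.2% under library size and under upper quartile scaling, 43.0% with DESeq2, 39.5% with the GC correction, and from 18.2% without control replicate 3 to 45.3% without induced replicate 3. Replicate numbers are shared between the groups, but deviations of same-numbered libraries correlated at 0.21, -0.02 and 0.07, so they were not taken as pairs. A fit with the replicate block called 265 genes higher and 575 lower, and 2 of the 34 genes were higher (HK2 and PFKP) and 1 lower. The blocked edgeR fit gave ENO1 an adjusted p of 0.0786, SLC16A1 0.0552, PFKP 0.0258, SLC2A4 0.0541 and STC1 0.0637.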
